A study of Homo sapiens with 6 samples.

Results

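The genes described here are the 3 neutrophil serine protease genes depleted in the study, ELANE, PRTN3 and CTSG, and 7 genes of the same granules or of their processing and inhibition: AZU1, PRSS57, MPO, RNASE2, RNASE3, CTSC and SERPINB1. The 10 genes were chosen by name, out of 19974 protein-coding genes on chromosomes 1-22 and X. For each, the peaks of 6 ATAC-seq libraries were read at the gene ends, in the gene and within 50 kb of it. ATAC-seq marks open DNA, where a transposase can insert sequencing adapters. U937 is a human tumour cell line with features of monocytes, first grown from a lymphoma. In 3 ΔNSPs libraries the cells came from independent clones, transduced with plasmids and depleted of all 3 proteases together, and in 3 control libraries from cell lines that carried control plasmids. Both groups were grown under geneticin, treated with DNase, washed and frozen in a DMSO medium before ATAC-seq. How the genes were depleted, and whether the control lines were clones too, is not given in the sources used here. Peaks do not measure the loss of a protein, so no value below checks the genotype, and the identity of the cells could not be checked against marker expression.

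Azurophil granules form early in the development of neutrophils and monocytes, when the promyelocyte transcribes their contents at a high rate. Neutrophil elastase (ELANE), proteinase 3 (PRTN3) and cathepsin G (CTSG) are active serine proteases of these granules. PRSS57 is a further such protease, and azurocidin (AZU1) is a relative that has lost protease activity and acts as an antimicrobial protein. Cathepsin C (CTSC) cuts a dipeptide off the inactive forms of the proteases, and SERPINB1 inhibits them in the cytoplasm. Myeloperoxidase (MPO) makes hypochlorous acid. RNASE2 and RNASE3 encode granule ribonucleases that are best known from eosinophils. In neutrophil precursors the transcription factors PU.1, C/EBP, RUNX1 and MYB are known regulators of several of these genes.

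The promoters shown first are those in which a peak fell within the 300 bases, AZU1, CTSG and RNASE2, beside the promoter of RNASE3, the near copy of RNASE2, and that of PRTN3, neither of which held a peak. Each is the RefSeq sequence of build GRCh38.p14, from 250 bases before the start to 50 bases after it, written 5′ to 3′ on the strand of the gene. RefSeq promoters matched 8 of the 10 genes, and ELANE and MPO had no entry. Capitals mark the peak of clone 2 in AZU1 (chr19:827587-827886, plus strand), CTSG (chr14:24576201-24576500, minus strand) and RNASE2 (chr14:20955237-20955536, plus strand). In RNASE3 (chr14:20891135-20891434, plus strand) they mark the bases that align with the capitals of RNASE2, and in PRTN3 (chr19:840749-841048, plus strand) the letters GAGGAA, the core that PU.1 recognises.
AZU1: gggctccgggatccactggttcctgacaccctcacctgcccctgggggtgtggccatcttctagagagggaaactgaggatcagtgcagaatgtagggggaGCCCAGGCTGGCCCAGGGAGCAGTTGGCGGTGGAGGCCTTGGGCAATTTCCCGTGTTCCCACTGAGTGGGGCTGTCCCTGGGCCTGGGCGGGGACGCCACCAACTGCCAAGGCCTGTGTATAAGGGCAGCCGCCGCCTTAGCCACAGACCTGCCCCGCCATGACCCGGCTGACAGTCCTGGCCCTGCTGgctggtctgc
CTSG: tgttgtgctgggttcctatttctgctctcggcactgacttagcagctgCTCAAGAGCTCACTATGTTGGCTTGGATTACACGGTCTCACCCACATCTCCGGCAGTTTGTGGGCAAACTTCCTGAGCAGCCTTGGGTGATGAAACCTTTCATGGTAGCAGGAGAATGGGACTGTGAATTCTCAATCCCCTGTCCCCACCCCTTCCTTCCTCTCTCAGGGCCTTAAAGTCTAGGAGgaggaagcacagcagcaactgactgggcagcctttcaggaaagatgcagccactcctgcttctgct
RNASE2: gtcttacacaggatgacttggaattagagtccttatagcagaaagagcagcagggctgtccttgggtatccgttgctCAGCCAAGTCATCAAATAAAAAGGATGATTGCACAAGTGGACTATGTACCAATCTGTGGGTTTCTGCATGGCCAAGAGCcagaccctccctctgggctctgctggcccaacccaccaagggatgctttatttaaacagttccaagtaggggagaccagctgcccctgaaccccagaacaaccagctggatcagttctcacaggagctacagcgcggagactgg
RNASE3: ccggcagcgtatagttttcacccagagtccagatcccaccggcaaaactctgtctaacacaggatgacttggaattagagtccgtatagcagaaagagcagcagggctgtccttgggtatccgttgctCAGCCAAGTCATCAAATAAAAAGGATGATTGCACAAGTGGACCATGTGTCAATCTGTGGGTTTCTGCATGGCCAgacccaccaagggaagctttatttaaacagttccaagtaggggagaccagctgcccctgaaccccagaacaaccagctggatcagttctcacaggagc
PRTN3: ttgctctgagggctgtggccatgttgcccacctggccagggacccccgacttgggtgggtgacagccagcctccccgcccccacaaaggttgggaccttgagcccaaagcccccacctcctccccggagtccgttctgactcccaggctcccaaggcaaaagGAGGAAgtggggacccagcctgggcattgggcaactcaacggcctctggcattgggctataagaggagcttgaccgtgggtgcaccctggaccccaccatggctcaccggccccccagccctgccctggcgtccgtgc

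The 6 lists differed greatly in length. Clones 1, 2 and 3 had 14262, 24981 and 2188 peaks on chromosomes 1-22, X and Y, and control lines 1, 2 and 3 had 13, 4 and 2. The lowest −log10 p of a listed peak was 4.89, 4.86 and 5.75 in clones 1, 2 and 3. No control list went below 7.45, so the control lists began at a smaller p. The lowest −log10 q was 2.00 in each clone and 2.07, 2.04 and 2.02 in control lines 1, 2 and 3. All 6 lists thus began at about the same q. Library depth is unknown, as the lists hold no read totals. The part of depth and of the p at entry in the differences below was not tested. The group of a library and the length of its list cannot be told apart.

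Of the 10 genes, 4 had a peak at a gene end in any ΔNSPs clone, and none had one in a control line. A gene-end peak is a deposited interval that touches the window of 1000 bp either side of either end of the gene. In clone 1 the only such gene was RNASE2, 1 of 10 genes (10%, exact Clopper-Pearson 95% interval 0.253 to 44.5%), against 39.1% of all protein-coding genes. In clone 2 they were AZU1, CTSG, RNASE2 and CTSC, 4 of 10 (40%, interval 12.2 to 73.8%), against 29.6% of all genes. In clone 3 there were 0 of 10 (interval 0 to 30.8%), against 6.55% of all genes. The intervals cover counting error only, and hold the share of all genes in each of the 3 clones. They treat the genes as independent draws, although these were chosen by name and some are neighbours, so they are not a test of the group. Control lines 1, 2 and 3 had 0 of 10, where 0.00501%, 0% and 0% of all genes were called, so the control lists hold too few peaks to show a difference among genes. RNASE2 alone was called at a gene end in at least 2 clones (10% of the 10 genes, against 23.3% of all genes), and no gene of the group had one in all 3 clones, against 5.4% of all genes. The other 6 genes, ELANE, PRTN3, PRSS57, RNASE3, MPO and SERPINB1, were called at a gene end in none of the 6 libraries, and 53.4% of all genes were called in none of the 3 clones.

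**Figure D1:**
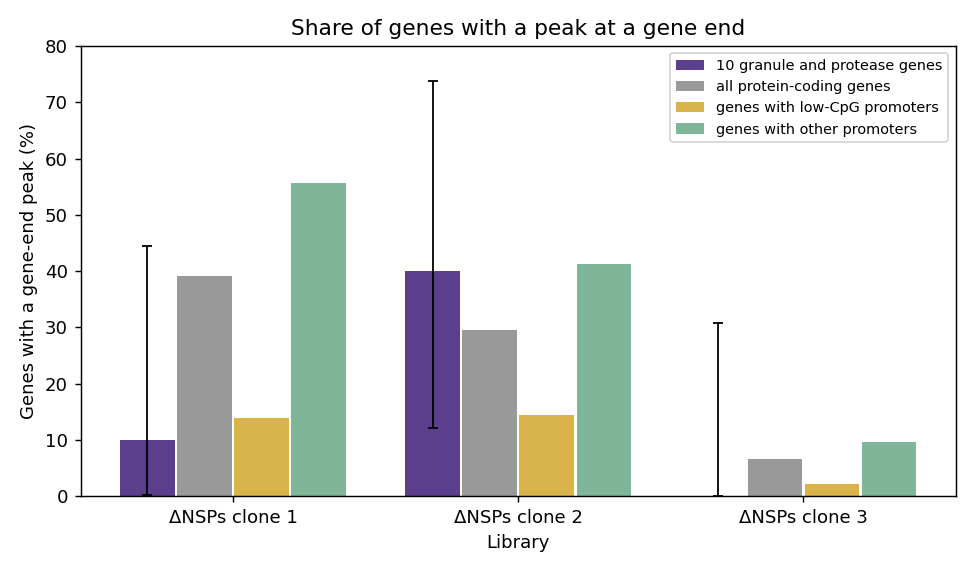
Share of genes with a gene-end peak (y axis, percent) in each ΔNSPs clone (x axis), for the 10 granule and protease genes, all 19974 protein-coding genes, the 5409 genes with promoters of low CpG content and the 10404 genes with other promoters. Error bars are exact Clopper-Pearson 95% intervals of the 10 genes, which hold the grey bar of all genes in every clone; in clone 3 the share was 0 of 10.

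RNASE2 (chr14:20955487-20956436) carried the one gene-end peak called in more than 1 clone. In clone 1 the peak lay at chr14:20955294-20955717, 424 bp wide, over the transcription start, with its best summit at +30 from the start. Its fold enrichment over the local background was 4.42, with a −log10 p of 11.7 and a −log10 q of 7.90, above 80.2% of the peaks of that list by q. In clone 2 the peak was narrower, 79 bp at chr14:20955314-20955392, with its summit at -133 from the start, a fold of 4.82, a −log10 p of 10.1 and a −log10 q of 6.36. The narrow interval lay wholly inside that of clone 1 but ended 95 bp short of the gene. The fold and p imply a pile-up of 28 reads over a background of 5.56 in clone 1 and of 20 reads over 3.35 in clone 2. Folds and p are the peak caller's own values and rank peaks within a list only.

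RNASE3 (chr14:20891385-20892348), the neighbouring paralogue, had no peak within 1000 bp in any library. Its nearest peak was 26.8 kb away in clones 1 and 2, in a region outside any protein-coding gene that lies between RNASE3 and RNASE2, and 211 kb away in clone 3. The promoters of RNASE2 and RNASE3 printed above align over 249 bases, of which 242 (97.2%) are identical. This count leaves out gaps. RNASE2 holds a stretch that RNASE3 lacks, which begins at the last capitals of RNASE2 and runs past its clone 2 peak. Of the 79 bases under the clone 2 peak of RNASE2, 74 align with RNASE3 and 71 of these are identical. How reads that match both copies were handled is not given in the sources used here, so the assignment of reads between these promoters is uncertain, and with it the difference between a peak at RNASE2 and none at RNASE3.

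CTSG (chr14:24573518-24576250), the depleted cathepsin G gene, had a gene-end peak in clone 2 only. It covered -202 to -17 relative to the start (chr14:24576267-24576452), with its summit at -66. Its fold was 3.20, its −log10 p 5.94 and its −log10 q 2.83, higher than 21.1% of the clone 2 peaks by q and 14.5% by fold. It was thus a weak call of that list, with an implied pile-up of 18 reads over a background of 4.93. In clones 1 and 3 the nearest peak was 130.6 kb away at the end of SDR39U1, at chr14:24442664-24442934 in clone 1 and chr14:24442779-24442933 in clone 3. The letters GAGGAA occur in the CTSG promoter at -46 on the opposite strand, inside the peak, and at -16 on the sense strand, just past its edge.

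AZU1 (chr19:827837-832018) had a gene-end peak in clone 2 only as well. The interval at chr19:827688-827876 ran from -149 to +39 around the start and held 2 summits, the better of them at -47. Its fold was 4.62, its −log10 p 9.62 and its −log10 q 5.97, with 20 reads over a background of 3.55. By q the peak stood above 64.8% of the clone 2 list, and by fold above 65%. A second clone 2 peak lay 2.75 kb before the gene, at chr19:824994-825084, with a fold of 4.29. Clones 1 and 3 had their nearest peaks 12.4 and 30.4 kb away.

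CTSC (chr11:88293592-88337736), whose product activates the proteases, had 1 peak within 50 kb in all 6 libraries together. That peak, in clone 2 at chr11:88338510-88338577, was 68 bp wide and had its summit at -816 from the start, with a fold of 3.51, a −log10 p of 10.2 and a −log10 q of 6.50. Ranked by q it stood above 68.9% of the clone 2 list, but by fold above only 23.7%, with 33 reads over a background of 8.68. In clone 1 the nearest peak was 1.34 Mb away, where 1.26% of all genes had a more distant one, and in clone 3 it was 7.81 Mb away, where 5.94% of all genes had a more distant one.

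**Figure D2:**
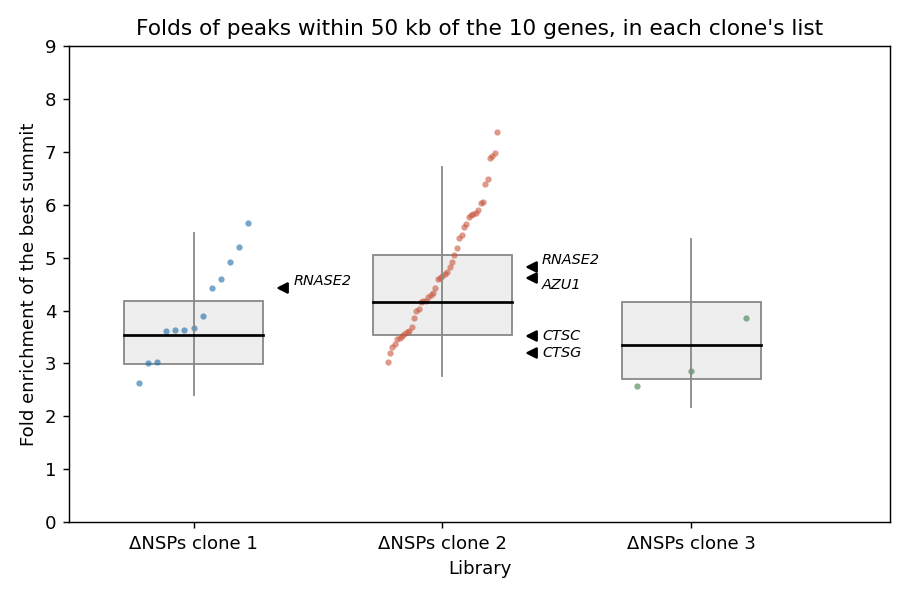
Fold enrichment of the best summit (y axis) for the peaks within 50 kb of the 10 genes (coloured points, 13, 47 and 3 peaks in clones 1, 2 and 3) beside each clone's whole list (box: quartiles and median; line: 5th to 95th percentile). Arrowheads name the gene-end peaks, of which RNASE2 in clone 1 lies above the box, CTSG and CTSC in clone 2 lie below it, and AZU1 and RNASE2 in clone 2 lie inside it.

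The other depleted proteases lie with AZU1 in a cluster on chromosome 19 and had peaks around them but not at them. ELANE (chr19:852303-856243) had 2, 8 and 0 peaks within 50 kb in clones 1, 2 and 3, and 0 in each control line. PRTN3 (chr19:840999-848175) and AZU1 each had 4, 10 and 1 peaks in the clones and 0 in each control line, and these were the same peaks, since their windows overlap. Clone 2 was the highest for each of the 3 genes and clone 3 the lowest. The peaks nearest to ELANE in clones 1, 2 and 3 were 36.9 kb away within PLPPR3, 16.6 kb away within MED16 and 54.9 kb away at the end of PTBP1. For PRTN3 they were 25.6 kb away within PLPPR3, 13.1 kb away at the AZU1 promoter and 43.6 kb away at PTBP1. Between the AZU1 promoter peak and the MED16 peak, a stretch that holds PRTN3 and ELANE, no library had a peak.

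Among the peaks around the cluster, the one called in all 3 clones lay at an end of PTBP1, which encodes an RNA-binding splicing regulator. Its folds were 2.63, 5.63 and 2.58 for clones 1, 2 and 3, and the clone 2 interval at chr19:796972-797220 was the strongest by q near any of the 10 genes, with a −log10 q of 25.5 and 69 reads over a background of 11.4. A merged region at chr19:814937-815418 in PLPPR3 held a peak of clone 1 and one of clone 2, with folds of 3.90 and 7.37. The clone 1 interval (chr19:815111-815418) and the clone 2 interval (chr19:814937-815175) overlapped only in part. Each best summit lay outside the interval of the other clone. The other regions of the cluster were each called in 1 clone.

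PRSS57 (chr19:685546-695452), which lies apart from that cluster on the same chromosome arm, had the most peaks of the 10 genes around it in clone 2 but not in clone 1, where PRTN3, AZU1 and RNASE2 had 4 each, and in clone 3 it was level with PRTN3, AZU1 and MPO. It had 2, 21 and 1 peaks within 50 kb in clones 1, 2 and 3, and 0 in each control line. The 21 peaks of clone 2 exceeded the count of 99.9% of all genes in that clone, while the 2 peaks of clone 1 exceeded that of 52.2% in clone 1. None touched the gene or its ends, the nearest being 4.74, 3.93 and 4.99 kb away. The region called in all 3 clones, chr19:680319-680642 in FSTL3, a gene for a secreted follistatin relative, reached 3.67-, 3.99- and 2.86-fold in clones 1, 2 and 3. Most clone 2 peaks stood alone, in RNF126 and PALM or between genes, with no counterpart in the other clones.

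MPO (chr17:58269855-58280935), the peroxidase gene, had 3, 3 and 1 peaks within 50 kb in clones 1, 2 and 3, and 0 in each control line. All of them lay at an end of TSPOAP1, 46.8 to 48.7 kb from MPO, at the far edge of the window. The merged region at chr17:58327734-58328318 held a peak of each of clones 1, 2 and 3, with folds of 3.63, 4.59 and 3.86. Its clone 2 interval (chr17:58328109-58328318) and clone 3 interval (chr17:58327753-58328059) each overlapped that of clone 1 but not each other. No base of the region was thus called in all 3 clones. SERPINB1 (chr6:2832332-2841863), the cytoplasmic inhibitor, had 4 peaks within 50 kb in clone 2 and none in clones 1 and 3 or in a control line. The nearest was 36.2 kb away, with a fold of 5.77, and WRNIP1 had the nearest gene end to each of the 4. The nearest peak of clone 1 lay 66.3 kb away at WRNIP1 itself, and that of clone 3 was 1.12 Mb away.

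**Figure D3:**
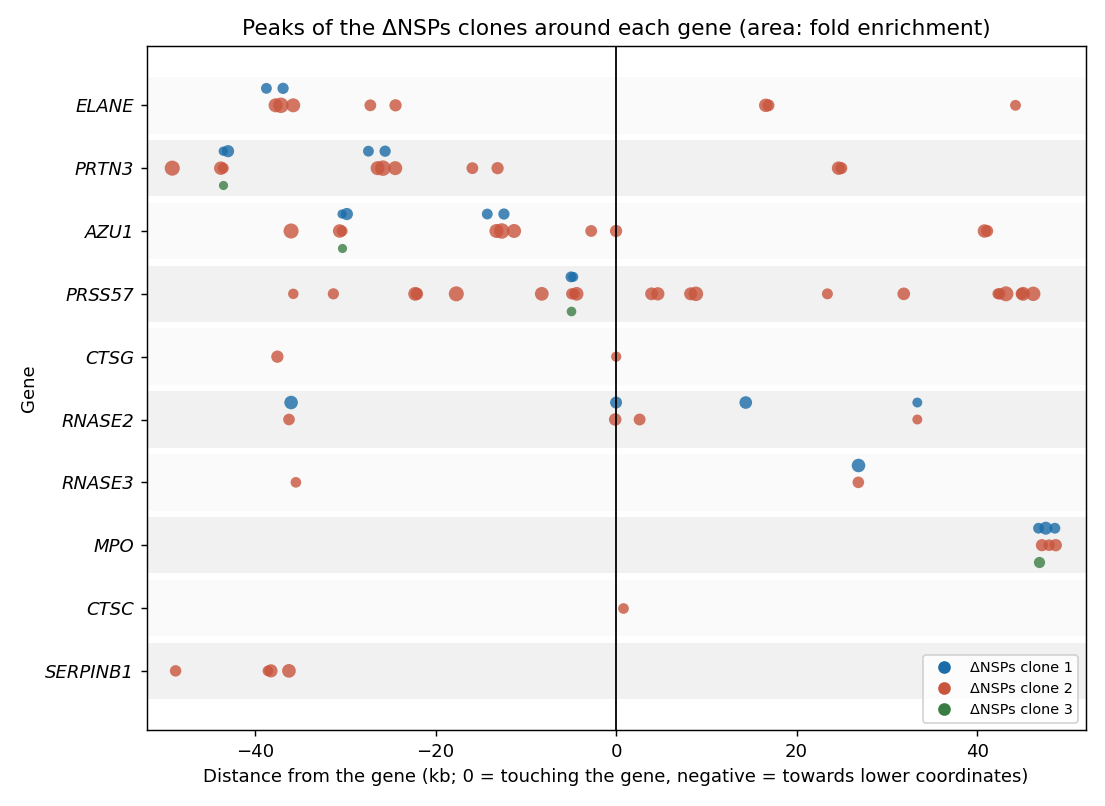
Peaks of the ΔNSPs clones around the 10 genes: the x axis gives the distance from the gene in kb (0 for a peak that touches it), each row is a gene, colours are clones and the area of a point is proportional to its fold. Peaks at or near 0 are seen for AZU1, CTSG, RNASE2 and CTSC, while those of MPO lie beyond 46 kb; the control lines had no peak in any row.

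Counted over the group, a peak within 50 kb was found for 7, 10 and 4 of the 10 genes in clones 1, 2 and 3, where 70.5%, 75.4% and 22.5% of all genes had one. Control lines 1, 2 and 3 had 0 of 10 genes, where 0.0701%, 0.01% and 0.015% of all genes had one. A peak within 50 kb in all 3 clones was found for 4 of the 10 genes, against 21.1% of all genes. These were PRTN3, AZU1, PRSS57 and MPO, and 3 of them lie on chromosome 19, PRTN3 and AZU1 with the same peaks. A peak touching the gene itself was rarer, at 1, 1 and 0 of the 10 genes in clones 1, 2 and 3, against 40.6%, 37.1% and 5.77% of all genes. In control lines 1, 2 and 3 it was 0 of 10, against 0.02%, 0.00501% and 0% of all genes. These were RNASE2 in clone 1 and AZU1 in clone 2. Most of the 10 genes are short (950 to 44145 bp, with 9 of them under 12 kb), and length was not matched in this count.

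The clones were compared with the control lines gene by gene, on the number of peaks within 50 kb. PRTN3 averaged 5.00 ± 4.58 peaks in the clones and 0 ± 0 in the control lines (SD, n = 3 each; exact two-sided permutation p = 0.1). MPO averaged 2.33 ± 1.15 peaks in the clones and 0 ± 0 in the control lines (SD, n = 3 each; exact permutation p = 0.1), and AZU1 and PRSS57 also reached p = 0.1, the smallest value that 3 libraries against 3 allow. ELANE averaged 3.33 ± 4.16 peaks in the clones and 0 ± 0 in the control lines (SD, n = 3 each; exact permutation p = 0.4), with RNASE2 and RNASE3 at the same p. CTSG, CTSC and SERPINB1 had p = 1 in the exact permutation test, since 1 clone alone had a peak. The 4 genes at the smallest p compare with 21.1% of all genes at it. With Benjamini-Hochberg adjustment over 19974 genes the lowest adjusted p of the exact permutation test was 0.475, so 0 of 10 genes and 0% of all genes passed 0.05. Without adjustment, 0 genes had an exact permutation p under 0.05. Nothing says whether libraries of a group were prepared apart, so these p-values stand for differences between libraries only. As every control count of the 10 genes was 0, each p follows only how many clones had a peak, not the spread of their counts.

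**Figure D4:**
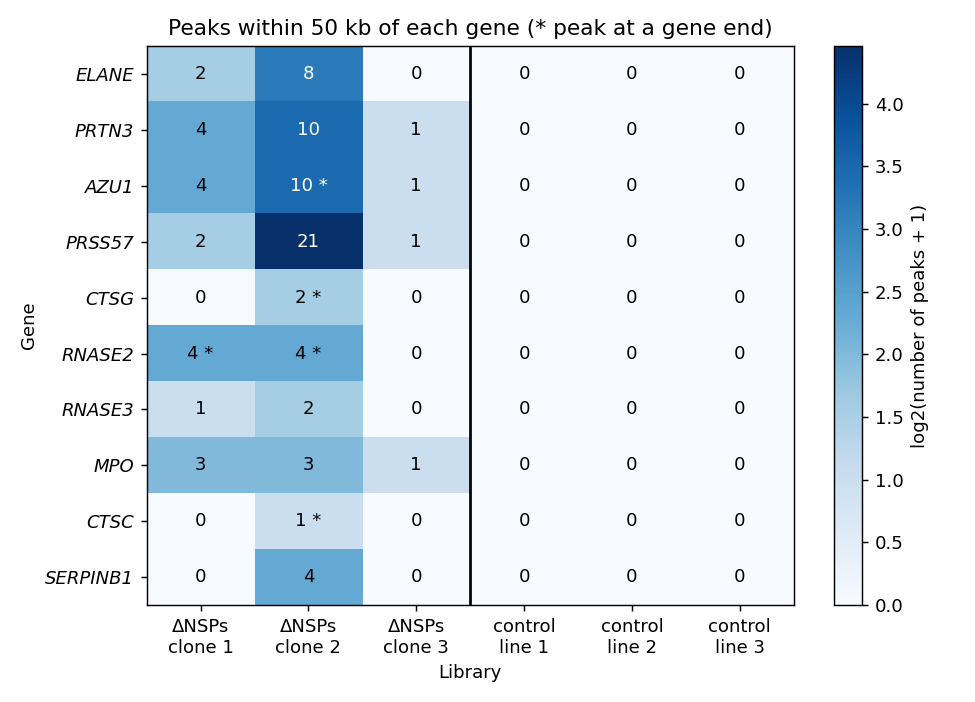
Number of peaks within 50 kb of each of the 10 genes (rows) in the 3 ΔNSPs clones and the 3 control lines (columns), with the colour on a log2(number + 1) scale and an asterisk where a gene-end peak was called. Clone 2 holds the highest count of every gene except RNASE2 and MPO, where clones 1 and 2 are level, and every control cell is 0.

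Taken as distinct intervals, the windows of the 10 genes held 13, 47 and 3 peaks in clones 1, 2 and 3, and none in any control line. They covered 5.02, 5.37 and 0.868 kb, so the 47 peaks of clone 2 spanned about as much sequence as the 13 of clone 1. The median width was 311, 92 and 307 bp in clones 1, 2 and 3, and over the whole lists it was 251, 99 and 171 bp. Clone 2 had 3.62 times as many peaks as clone 1 in these windows, against 1.75 times over all chromosomes. The 4 chromosome 19 genes made up most of that excess: their windows held 6, 32 and 2 peaks in clones 1, 2 and 3. The window of PRSS57 alone held 21 of those 32 peaks of clone 2 and 2 of the 6 of clone 1. The windows of the other 6 genes held 7, 15 and 1 peaks in clones 1, 2 and 3. On the whole of chromosome 19 clone 2 had 1.91 times as many peaks as clone 1. Merging the intervals of the 3 clones gave 51 regions, of which 38 were called in clone 2 alone, 5 in clone 1 alone, 5 in clones 1 and 2 and 3 in all 3 clones. As shares these were 74.5%, 9.80%, 9.80% and 5.88%, against 54.4%, 23.3%, 15.7% and 3.82% of the 32814 regions merged in the same way over all chromosomes. A region counted in all 3 clones can join intervals of which some do not overlap each other, as in the MPO window. Overlap with a control peak was found for 0 of the 51 regions and for 8 of all 32814 (0.0244%).

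The promoters of the 6 granule genes with a promoter entry shared a low content of CpG dinucleotides, which the choice of genes did not use. ELANE and MPO had no entry, and RNASE2 and RNASE3 are near copies. The observed over expected CpG was 0.14 for CTSG, 0.15 for RNASE2, 0.26 for RNASE3, 0.27 for PRTN3, 0.28 for AZU1 and 0.51 for PRSS57, against a median of 0.76 over the promoters of 15813 protein-coding genes. CTSC and SERPINB1, which many other cells also use, had 1.03 and 0.84. Promoters below 0.6, 34.2% of all, are called of low CpG content here. Genes with such promoters had a gene-end peak in 13.9%, 14.4% and 2.26% of cases in clones 1, 2 and 3, and genes with other promoters in 55.7%, 41.2% and 9.58%. Of the 6 granule genes in the low class, 1, 3 and 0 had a gene-end peak in clones 1, 2 and 3, and 1 was called in at least 2 clones, where 8.15% of all genes of that class were. In the other class, CTSC in clone 2 was the 1 of 2 genes with a peak, and 0 of 2 were called in at least 2 clones, where 34.4% of all genes of that class were. With 6 and 2 genes these counts are a description, and no test was made of them.

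**Figure D5:**
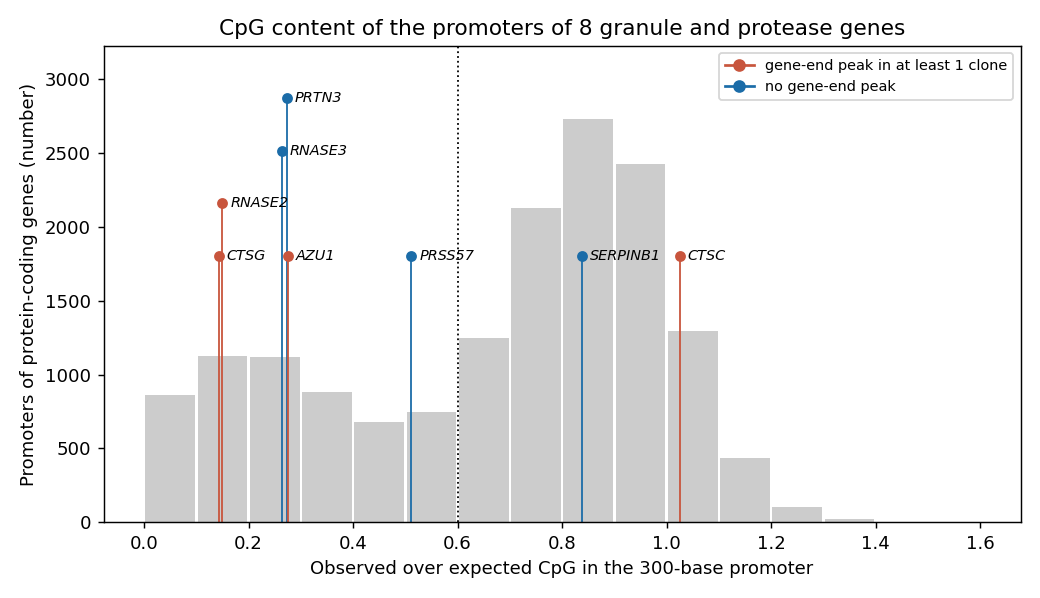
Histogram of the observed over expected CpG (x axis) of the 300-base promoters of 15813 protein-coding genes (y axis, number of promoters), with the 8 genes that have a promoter entry marked. The dotted line is at 0.6; CTSG, RNASE2, RNASE3, PRTN3, AZU1 and PRSS57 lie to its left, SERPINB1 and CTSC to its right, red marks a gene-end peak in at least 1 clone, and the height of a marker has no meaning.

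Short letter strings of myeloid factors were read in these promoters as a description. GAGGAA, the PU.1 core, was present on either strand in 2 of 8 promoters, PRTN3 and CTSG. It was in 27.6% of all 15813 and in 33.4% of those of low CpG content. TTNNGNAA, a C/EBP pattern, was present on either strand in 6 of 8, namely PRTN3, AZU1, CTSG, RNASE2, RNASE3 and CTSC, against 30.4% of all promoters and 45.2% of those of low CpG content. That pattern fell inside the clone 2 peak of AZU1 and inside the RNASE2 peaks of clones 1 and 2. RNASE3 holds it as well in the aligned stretch, so these near copies do not count as separate matches. TGTGGT, a RUNX pattern, occurred on either strand in 1 of 8, PRSS57, and in 10.9% of all and 16.6% of low CpG content. AACNG, a short MYB pattern, was in 8 of 8 on either strand, but also in 75.4% of all promoters and 81.7% of low CpG content. TATAAA was searched on the sense strand and was in 0 of 8, against 6.92% of all and 13.7% of low CpG content. The search asked for this exact string, so near matches such as TATAAG in the printed AZU1 and PRTN3 promoters were not counted. The 0 of 8 does not show that these promoters lack a TATA box. The searches for different factors can overlap each other in a promoter, and a match is not a measured binding site.

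Other genes of neutrophil granules and of serine proteases were counted by the same rule. Of 12 other azurophil granule proteins, 5, 4 and 1 had a gene-end peak in clones 1, 2 and 3 (41.7%, 33.3% and 8.33%, against 39.1%, 29.6% and 6.55% of all genes), and 3 were called in at least 2 clones (25%, against 23.3% of all genes). These were CD63, a granule membrane tetraspanin, with folds of 4.90 and 5.05 in clones 1 and 2, GUSB, a lysosomal glucuronidase, with 4.31 and 4.26, and HEXA, a lysosomal hexosaminidase, with 5.25, 4.15 and 4.33 in clones 1, 2 and 3. Lysozyme (LYZ) and the defensin genes DEFA1, DEFA3 and DEFA4, of which DEFA1 and DEFA3 are near copies, had no gene-end peak in any clone. Of the rest of this list, BPI had a gene-end peak in clone 2 alone, with a fold of 3.48. MAN2B1 and ASAH1 had one in clone 1 alone, with folds of 3.79 and 3.26, and ARSA and PLAC8 had none in any clone. The MAN2B1 peak also lies at an end of WDR83.

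Of 17 proteins of specific and gelatinase granules, which form later than azurophil granules, 2, 1 and 0 had a gene-end peak in clones 1, 2 and 3 (11.8%, 5.88% and 0%, against the same 39.1%, 29.6% and 6.55% of all genes). CYBA, a subunit of the phagocyte oxidase, was the only one with a peak in at least 2 clones (5.88%, against 23.3% of all genes), at 3.40-fold in clone 1 and 4.68-fold in clone 2. The CYBA peaks lie at an end of MVD too. LTF, LCN2, CAMP and MMP8 were among the 15 with none. Of 15 other inhibitors and processing factors, 5, 3 and 0 had one in clones 1, 2 and 3 (33.3%, 20% and 0%, against 39.1%, 29.6% and 6.55% of all genes). The inhibitor gene SERPINB8 and the protease gene CTSH were called in at least 2 clones (13.3% of the list, against 23.3% of all genes), with folds of 3.14 and 3.80 in clone 1 and 3.22 and 4.80 in clone 2. The SERPINB8 peaks also lie at an end of HMSD. Of 9 other chymotrypsin-like proteases of leukocytes, 0, 1 and 0 had one in clones 1, 2 and 3 (0%, 11.1% and 0%, against 39.1%, 29.6% and 6.55% of all genes), the gene being GZMM, which also lies on chromosome 19, with a fold of 6.38 in clone 2. GZMB, GZMH and CMA1, the neighbours of CTSG on chromosome 14, had none. No gene of the 4 lists had a gene-end peak in a control line.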

How the data were processed

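ATAC-seq libraries of U937 cells, 3 titled ΔNSPs and 3 titled Control, were analysed from 1 deposited peak list each. Per the submitters' processing notes, FastQC, Bowtie2, Picard and MACS2 were used with build GRCh38; the sources used here do not give versions, settings or whether cut sites were shifted. Peaks were called per library, since the deposited peak names carry library names. The authors deposited, per summit, a fold (a ratio to local background), with p and q each as −log10. The deposited score repeats the q (10 times its −log10, cut to a whole number) in every line and was left aside. Read totals, and so depth, are unknown, which limits the comparison of lists.

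Lines sharing an interval were counted as 1 peak with its best summit by −log10 q, and 127 offsets below 0 in clone 2 were set to 0. Genes came from RefSeq (GRCh38.p14), with overlap of 1 bp or more. The reads at a summit and the background were solved from the fold, with 1 added to each, and from a Poisson p, and the reads were whole within 0.05 read for 100% of the peaks printed. The window counts, the solver and the exact permutation test (20 assignments, difference of means) were tested on simulated data. RNASE2 and RNASE3 promoters were aligned globally with free end gaps. Python 3.11.15, numpy 2.4.6, pandas 2.3.3, scipy 1.17.1 and Biopython 1.88 were used. The 10 genes, the other genes named (those sharing a gene-end peak or nearest to it, and list genes called at a gene end in at least 2 clones plus up to 4 without) and the lists were chosen with earlier results of these data known. GZMM, RNF126, PALM, MVD, HMSD, BPI, MAN2B1, WDR83, ASAH1, ARSA and PLAC8 were added after their values were seen.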

Additional observations from a re-analysis of the deposited data

How the results depend on the processing

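The gene-end counts of 1, 4 and 0 genes in clones 1, 2 and 3 became 1, 3 and 0 with a window of 500 bp, where CTSC was lost, and also when a −log10 q of at least 5 was asked, where CTSG was lost. They did not change with a window of 2500 bp or when the best summit had to lie in the window. With each clone's list reduced to its best 2188 peaks, the length of the shortest, the counts were 0 in clone 1, 0 in clone 2 and 0 genes in at least 2 clones, so no gene-end peak of the 10 genes was among the best 2188 of its list. The single gene called at a gene end in at least 2 clones, RNASE2, gave 0 to 1 genes with a clone left out, 0 without clone 1 or clone 2, and 0 genes had one in all 3 clones. For peaks within 50 kb, the 7, 10 and 4 genes of clones 1, 2 and 3 became 3, 7 and 1 within 25 kb and 8, 10 and 5 within 100 kb. With a −log10 q of 5 or more they became 6, 9 and 0, and with lists of equal length 1, 4 and 4. Clone 2 then no longer exceeded clone 3. No gene of the group passed the exact permutation test under any setting run: 0 with the replicate number as a replicate block (smallest possible p 0.25), with covered bases, with a −log10 q of 5 or more, or with any library left out (0 to 0). As 3 libraries against 3 cannot reach 0.05, this says nothing of stability. The labels do not say that a number pairs a clone with a control line, and the nearly empty control lists did not allow a check of pairing.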
